A study of Mus musculus with 27 samples.

Results

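The 10 genes described here encode costimulatory and checkpoint molecules, the surface proteins and ligands with which an antigen-presenting cell raises or restrains the response of a T cell or of itself. They were chosen by symbol: Cd80, Cd86, Cd40, Cd83, Icosl, Cd274, Pdcd1lg2, Havcr2, Lgals9 and Cd200r1, 10 of 23995 genes in the deposited table. The rule that picks them uses symbols only, but the set was chosen with earlier results of these data known. Contrasts of the members with all genes therefore describe this set and are no test of it. All 10 were in the table, and 9 of them, with values of 10 or more in 3 or more libraries, were tested. Pdcd1lg2 had too low values, and is given by its values only. The cells were microglia, the resident macrophages of the brain, shaken off mixed glial cultures of cortex from newborn mice and kept in medium with fetal calf serum. The question of the study was whether the cannabinoid receptor CB2, encoded by Cnr2, takes part in microglial activation through Toll-like receptors. Wild-type (WT) mice were C57BL/6J, and CB2-/- mice were of the strain B6.Cg-Cnr2tm1Zim, which carries a targeted allele of Cnr2 in every cell. Cells of each genotype were left unstimulated or exposed for 16 h to E. coli lipopolysaccharide (LPS, 100 ng/ml) together with interferon-γ (20 ng/ml), to PolyI:C, or to CpG (1 nmol/ml). Of the Toll-like receptors, TLR4 senses LPS, TLR3 senses RNA such as PolyI:C, and TLR9 senses CpG DNA. LPS was never given without interferon-γ, so the shares of these agents in a response cannot be told apart.

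There were 27 libraries in 9 groups of 3. Numbers in the library titles were taken as 2 series. Series A, 3012 to 3023, holds the 3 stimulated WT groups and 3 unstimulated WT libraries; series B, 2048 to 2188, holds all libraries labelled CB2-/- and the other 3 unstimulated WT libraries. WT responses were therefore taken against unstimulated WT of series A, and unstimulated CB2-/- libraries were compared with unstimulated WT of series B. Series B has a gap: its CB2-/- libraries run from 2048 to 2059 and its WT libraries from 2186 to 2188. Between the unstimulated genotypes of series B, genotype and run of numbers therefore cannot be told apart. For stimulated cells genotype and series are the same split and cannot be told apart, so stimulated levels of the genotypes were not tested against each other, and every difference between the responses of the genotypes is also a difference between series. Nothing says whether the 3 libraries of a group came from separate animals or cultures, so the tests measure the spread between libraries.

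Activation of a T cell needs a signal through its antigen receptor and a second, costimulatory signal from the presenting cell. CD80 and CD86 give that signal through CD28, and bind the inhibitory receptor CTLA-4 as well; the ICOS ligand encoded by Icosl acts through ICOS on T cells that have already been activated. CD40, a receptor of the tumour necrosis factor family, receives a signal from CD40 ligand on T cells and in turn raises CD80 and CD86 on the presenting cell. PD-L1 (Cd274) and PD-L2 (Pdcd1lg2) bind PD-1 and dampen T cells, and PD-L1 is a well known target of interferon-γ. TIM-3 (Havcr2) is an inhibitory receptor found on T cells and on microglia, and galectin-9 (Lgals9) is 1 of its ligands. CD200 receptor 1 (Cd200r1) is carried by microglia and receives a restraining signal from CD200 on neurons.

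Promoters of 3 members are shown because Cd274 and Lgals9 rose with LPS plus interferon-γ and with PolyI:C in both genotypes, while Pdcd1lg2, the neighbour of Cd274 on chromosome 19, stayed low. RefSeq promoter windows on GRCm38.p6 were matched for 6 of the 10 members and searched from 250 bases before to 50 bases after the start. No window was matched for Cd40, Cd86, Cd83 and Cd200r1, although Cd40 and Cd86 rose in the same comparisons. Whether a match goes with a response was not tested. The 250 bases before the start are printed 5′ to 3′ on the gene's strand. Capitals mark a pattern like that of an interferon-stimulated response element, searched as GAAANNGAA on both strands, in Cd274 and Lgals9, and an NF-κB motif, searched by its consensus on both strands, in Pdcd1lg2.
Cd274, chr19:29367188-29367437, plus strand: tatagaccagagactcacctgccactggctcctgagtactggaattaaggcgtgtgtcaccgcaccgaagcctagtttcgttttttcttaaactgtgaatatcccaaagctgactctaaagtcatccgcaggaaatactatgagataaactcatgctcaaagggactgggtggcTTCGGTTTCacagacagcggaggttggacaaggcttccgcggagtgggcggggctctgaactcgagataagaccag
Lgals9, chr11:78984925-78985174, minus strand: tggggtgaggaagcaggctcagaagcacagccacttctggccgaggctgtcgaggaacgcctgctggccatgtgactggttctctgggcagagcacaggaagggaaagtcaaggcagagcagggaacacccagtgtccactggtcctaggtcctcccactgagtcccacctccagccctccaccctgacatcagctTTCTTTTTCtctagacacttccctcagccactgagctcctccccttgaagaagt
Pdcd1lg2, chr19:29410669-29410918, plus strand: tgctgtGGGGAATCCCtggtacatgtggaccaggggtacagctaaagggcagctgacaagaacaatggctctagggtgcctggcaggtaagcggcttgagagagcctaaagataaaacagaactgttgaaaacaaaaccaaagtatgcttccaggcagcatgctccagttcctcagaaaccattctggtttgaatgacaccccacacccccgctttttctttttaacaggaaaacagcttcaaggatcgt
With the start base counted as 0, the capitals lie at -76 to -68 in Cd274 and at -54 to -46 in Lgals9, both as the reverse complement of the motif, and Lgals9 has a further match at 16 to 24, not printed. The NF-κB match of Pdcd1lg2 lies at -244 to -235 and reads as a match on both strands, so the same bases are counted once. No match to either motif, nor to the STAT-binding motif TTCNNNGAA, was found in the windows of Cd80, Havcr2 and Icosl, and none to TTCNNNGAA in the other 3. The Cd80 window, 38458683 to 38458982, lies inside the gene, which starts at 38455561 on the plus strand. The bases around that gene start were not searched. Of 32851 promoter windows of the same length, 8.56% held GAAANNGAA, 8.3% held TTCNNNGAA and 4.51% held the NF-κB motif, so such matches are not rare. A match describes letters and not a bound site.

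Values are the authors' normalised counts, which are not scaled to gene length, so levels are compared between groups and not between genes. The summed value per library ran from 6341299 to 14151982, with 13628 to 20643 genes above 0. Microglial markers were detected in every library, with Csf1r at 5154 to 36201 and Cx3cr1 at 148 to 7929. P2ry12 ran from as low as 2.41 to 385 and Tmem119 from 2.96 to 677. The sum of the microglial markers was 55248 to 60101 in unstimulated WT of series A and 13227 to 16664 in stimulated WT. In series B it was 25482 to 35437 in unstimulated WT, 23015 to 24362 in unstimulated CB2-/- and 11837 to 19845 in stimulated CB2-/- libraries. The baselines of the 2 genotypes' responses thus differed in this sum. Of the markers of T cells, B cells and dendritic cells, Cd3d did not exceed 4.01, Ms4a1 11.9, Flt3 2.58, Clec9a 7.71 and Siglech 7.48. The T cell marker Lck reached 23.5, Zbtb46 20.2, Cd79b 62.0 and Xcr1 133. Dendritic cell markers (5 of 6 in the table) summed to 9.22 to 14.0 in unstimulated WT of series A and to 105 to 126 with LPS plus interferon-γ in WT, and to 9.12 to 18.01 in unstimulated WT of series B and 32.4 to 41.5 in unstimulated CB2-/- libraries. Of the 2 that were tested, 1 was called higher in each of these comparisons, where Cd40, Cd80 and Cd86 were higher too; the part of dendritic cells in these results was not tested. Monocyte and neutrophil markers summed to 30.0 to 45.2 in unstimulated WT of series A and 62.2 to 80.3 with LPS plus interferon-γ. They reached 235 to 356 with PolyI:C and 264 to 379 with CpG in WT. Of these markers S100a8 reached 377, while Ly6c2 did not exceed 36.4, Ccr2 35.7, S100a9 10.1 and Mpo 2.82. By limma at an unadjusted p under 0.05, 2 of the 3 tested rose and 0 fell with PolyI:C in WT. With CpG in WT 1 rose and 1 fell. In CB2-/- libraries the monocyte and neutrophil markers summed to 21.1 to 43.8 without stimulus and 47.4 to 55.2 with LPS plus interferon-γ. PolyI:C gave 28.1 to 48.7 there and CpG 45.0 to 82.2. The part of such cells in the results was not tested. In a bulk sample fewer cells of a type and less RNA per cell cannot be told apart. Astrocyte markers summed to 1427 to 2496 in unstimulated WT of series B against 167 to 272 in the unstimulated CB2-/- libraries. Fibroblast markers summed to 691 to 2475 and 58.3 to 93.4 in these groups. In WT of series A they summed to 13.4 to 2891 without stimulus and 527 to 821 with LPS plus interferon-γ. PolyI:C gave 50.4 to 905 there and CpG 12.1 to 2111. Replicate 1 of the unstimulated series A, PolyI:C and CpG groups of WT was the lowest of its group in astrocyte and fibroblast markers. Gm19220, Gm26822 and Grip2, singled out after their values were seen, took up no more than 0.00453% of a library's summed value in series A and 0.0741 to 50.8% of it in series B. Cnr2 was detected in every library labelled CB2-/-, at 317 to 454 without stimulus against 172 to 231 in WT of series B; gene-level values say nothing on the deleted stretch itself, so the genotype rests on the labels.

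**Figure D1:**
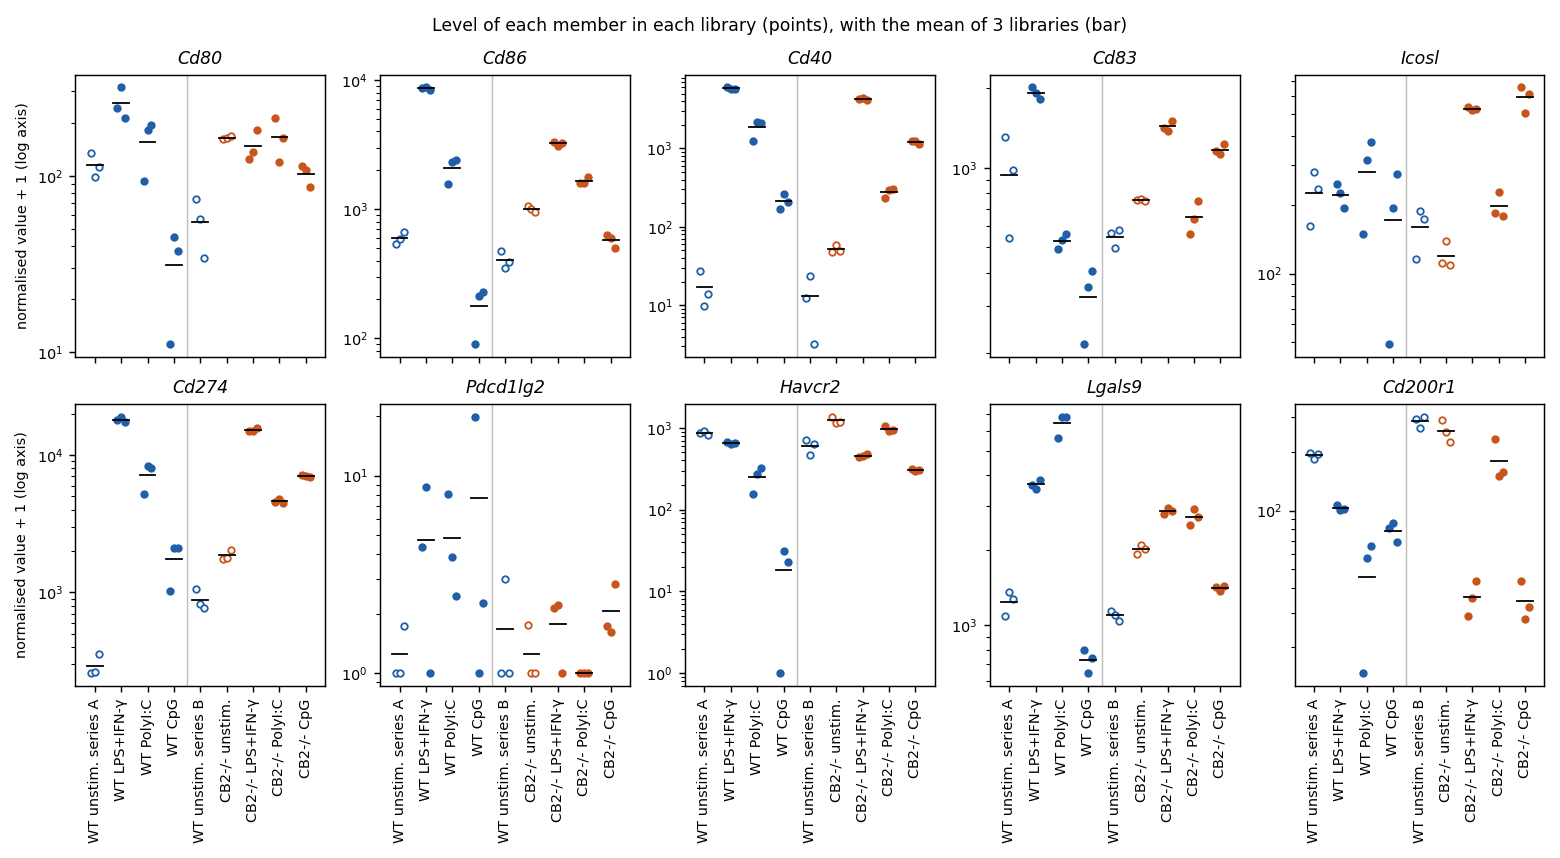
Normalised value plus 1 of each of the 10 members (panels, log axes that differ between panels) in every library, with the mean of each group of 3 as a bar; open points are unstimulated, blue is WT, orange is CB2-/-, and the grey line separates series A from series B. Cd40 and Cd274 are highest with LPS plus interferon-γ in both genotypes, while the lowest groups of Havcr2 and Cd200r1 are stimulated ones.

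LPS with interferon-γ raised most of the members in WT microglia. Of the 9 tested, 6 rose, namely Cd40, Cd80, Cd86, Cd83, Cd274 and Lgals9, and 1 fell, Cd200r1; among all genes 21.7% were called higher and 18% lower. The median log2 change of the members was 1.15, against 0.05 over all genes tested. Calls were made with limma on log2(value + 1), for adjusted p under 0.05 (Benjamini-Hochberg, 14668 genes), and changes are given as log2 change ± SE on that scale. In CB2-/- microglia 6 rose as well, with Icosl in place of Cd80, and 1 fell, again Cd200r1, where 12.8% of all genes were called higher and 10.9% lower; the median was 0.92 against 0.03.

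PolyI:C raised 4 members in WT, Cd40, Cd86, Cd274 and Lgals9, and lowered 3, Cd83, Havcr2 and Cd200r1, where 21.2% of all genes were called higher and 19.9% lower; the median over the members was 0.38 and over all genes -0.06. In CB2-/- cells Cd40, Cd86, Cd274 and Lgals9 rose, 4 of 9, and 0 fell by limma, also at an unadjusted p under 0.05, with 5.11% and 3.44% of all genes called in these directions and medians of 0.43 and 0.01. CpG lowered most members in WT: 2 rose, Cd40 and Cd274, and 6 fell, Cd80, Cd86, Cd83, Havcr2, Lgals9 and Cd200r1. Among all genes 16.5% were called higher and 19.6% lower, and the median was -1.29 over the members and -0.09 over all genes. In CB2-/- cells CpG raised 3, Cd40, Cd274 and Icosl, and lowered 3, Cd86, Lgals9 and Cd200r1, against 6.82% and 7.44% of all genes, with a median of -0.52 over the members and 0.00 over all genes. The comparisons of 1 genotype share their unstimulated libraries.

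**Figure D2:**
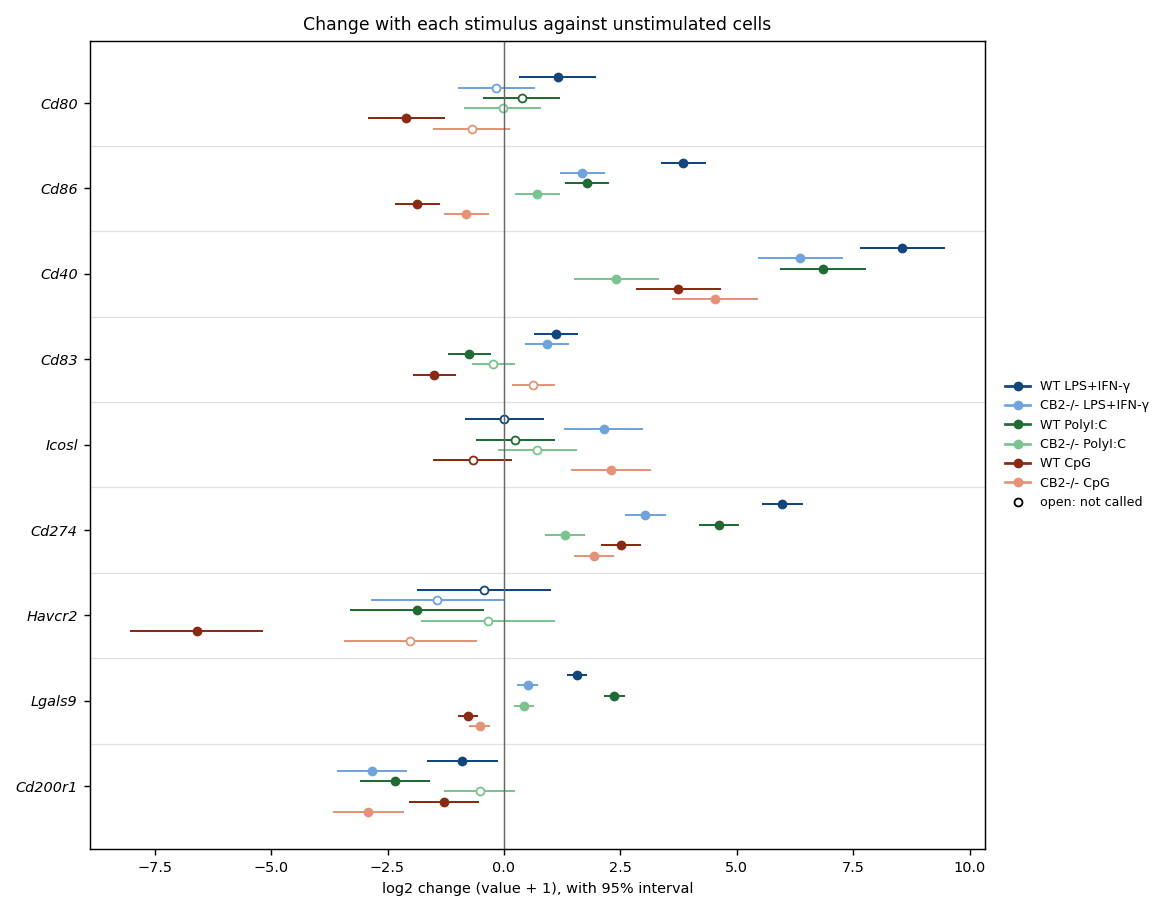
Log2 change of the 9 tested members with each stimulus against unstimulated cells of the same genotype, WT in the dark and CB2-/- in the light shade of each colour; bars are 95% intervals of the fit, filled points passed an adjusted p under 0.05, and open points did not. Cd40 rose in all 6 comparisons, by 2.41 to 8.56, and Cd274 in all 6, by 1.31 to 5.98, whereas Cd86 and Lgals9 rose with LPS plus interferon-γ and PolyI:C and fell with CpG in both genotypes.

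Cd86, a ligand of CD28 (chromosome 16, 36603869 to 36666081, minus strand, GRCm38), stood at 536, 589 and 666 in the 3 unstimulated WT libraries of series A and reached 8632, 8789 and 8435 with LPS plus interferon-γ. This was a 14.4-fold rise of the mean, with a log2 change of 3.86 ± 0.22 (adjusted p = 6.4e-13), and the groups lay far apart. PolyI:C brought WT cells to 1565, 2304 and 2386, a change of 1.78 ± 0.22 (adjusted p = 4.39e-07), with replicate 1 the lowest. CpG had the opposite direction in WT: the libraries fell to 89.5, 211 and 228, a change of -1.86 ± 0.22 (adjusted p = 3.49e-07), and all 3 lay under every unstimulated library. Unstimulated CB2-/- cells held 1064, 1009 and 944, and rose to 3316, 3086 and 3284 with LPS plus interferon-γ, a change of 1.68 ± 0.22 (adjusted p = 2.41e-06). With PolyI:C they held 1584, 1592 and 1785, a change of 0.72 ± 0.22 (adjusted p = 0.0459), and with CpG 629, 595 and 498, a fall with a change of -0.81 ± 0.22 (adjusted p = 0.0129). The direction of each stimulus was thus shared by the genotypes for Cd86. The PolyI:C call in CB2-/- cells was lost when any 1 of the 6 libraries was left out (adjusted p 0.0863 to 0.141), and the CpG call was lost without CB2-/- CpG replicate 3 (0.0735) or unstimulated CB2-/- replicate 1 (0.0515). The order of the means ran from WT with LPS plus interferon-γ through CB2-/- with the same stimulus to WT and CB2-/- with PolyI:C, whose ranges overlapped, and ended with WT with CpG as the lowest group.

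Cd80, the other CD28 ligand (chromosome 16, 38455561 to 38496335, plus strand), moved less and with a wider spread. It stood at 133, 97.5 and 111 in unstimulated WT of series A and at 239.9, 315 and 212 with LPS plus interferon-γ, a rise of 1.15 ± 0.39 (adjusted p = 0.0207); without WT LPS replicate 2 or unstimulated WT replicate 2 of series A that call was lost (adjusted p 0.087 and 0.0652). With CpG it fell to 10.2, 43.9 and 36.5, a change of -2.10 ± 0.39 (adjusted p = 0.00014), where replicate 1 was far under the others. With that replicate and the other WT libraries low in astrocyte and fibroblast markers left out, an alternative added after the data were seen, the fall was -1.35, and a fit of the compared groups alone ended the call (adjusted p 0.0628). PolyI:C libraries of WT held 92.0, 180.5 and 193 and overlapped the unstimulated ones (0.38 ± 0.39). None of the stimuli gave a call for Cd80 in CB2-/- cells by limma: the groups held 160.4 to 166 without stimulus, 124 to 181 with LPS plus interferon-γ, 119 to 212 with PolyI:C and 85.2 to 112 with CpG, with changes of -0.17 ± 0.39, -0.03 ± 0.39 and -0.69 ± 0.39. The CB2-/- CpG libraries all lay under the unstimulated ones, and 2 alternatives, library weights and a fit of the compared groups alone, called that fall (adjusted p 0.0296 and 0.0164). Neighbouring groups in the order of Cd80 levels overlapped, apart from the step between CB2-/- with CpG and unstimulated WT of series B.

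March1, the ubiquitin ligase that removes CD86 from the surface, rose with every stimulus in both genotypes: by 1.29 ± 0.11, 1.61 ± 0.11 and 1.53 ± 0.11 in WT and by 1.38 ± 0.11, 0.63 ± 0.11 and 1.72 ± 0.11 in CB2-/- cells, with LPS plus interferon-γ, PolyI:C and CpG in that order. It was taken with March8, Cmtm4, Cmtm6, Il10 and Il10ra, a list on surface turnover of CD86 and PD-L1 with 6 tested genes. Of these, 3 rose and 2 fell with LPS plus interferon-γ in WT (median 0.21), 2 rose and 1 fell with PolyI:C, and 2 rose and 3 fell with CpG. CB2-/- cells had 3 risen and 1 fallen with LPS plus interferon-γ and likewise with CpG. Cmtm4, whose product shields PD-L1 from breakdown together with that of Cmtm6, fell with each stimulus in WT, with changes of -1.38 ± 0.14, -1.83 ± 0.14 and -1.16 ± 0.14.

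Cd40 had the largest rise of the 9 tested members in each of the 6 stimulus comparisons (chromosome 2, 165055627 to 165072948, plus strand). It was low in unstimulated WT, at 8.68 to 26.5 in series A and 11.5, 22.8 and 2.23 in series B, and reached 5997, 5797 and 5725 with LPS plus interferon-γ. The mean rose 363-fold, with a log2 change of 8.56 ± 0.43 (adjusted p = 5.6e-14). PolyI:C brought WT cells to 1242, 2187 and 2121 (6.85 ± 0.43, adjusted p = 3.35e-12) and CpG to 166, 258 and 208 (3.75 ± 0.43, adjusted p = 2.06e-07), so the stimuli ranked LPS plus interferon-γ, PolyI:C and CpG, with no overlap between these groups. The ranking of PolyI:C and CpG was turned around in CB2-/- cells. From 47.3, 57.3 and 48.4 without stimulus they reached 4261, 4388 and 4165 with LPS plus interferon-γ (6.37 ± 0.43, adjusted p = 5.04e-11), 234, 298 and 299 with PolyI:C (2.41 ± 0.43, adjusted p = 0.000627) and 1249, 1239 and 1121 with CpG (4.54 ± 0.43, adjusted p = 2.64e-08). PolyI:C minus CpG was 3.11 ± 0.43 (adjusted p = 4.55e-06) in WT and -2.12 ± 0.43 (adjusted p = 0.00137) in CB2-/- cells. The ranges of WT with CpG and of CB2-/- with PolyI:C overlapped, as did those of WT with PolyI:C and CB2-/- with CpG.

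The intracellular partners of CD40, the TRAF adaptors with Map3k14, Birc2 and Birc3, gave 8 tested genes of 8. With LPS plus interferon-γ 5 rose in WT (median 0.64) and 6 in CB2-/- cells (median 1.22), and 0 fell in either by limma, against 1 and 0 falls at an unadjusted p under 0.05. With PolyI:C 3 rose and 1 fell in WT, and with CpG 3 rose and 2 fell. Among CB2-/- libraries 4 rose with each of these and 0 fell, against 1 and 0 falls at an unadjusted p under 0.05. Traf1, an adaptor induced by NF-κB that extends CD40 signalling, rose with a change of 7.84 ± 0.29, 7.62 ± 0.29 and 5.06 ± 0.29 in WT and of 4.15 ± 0.29, 2.15 ± 0.29 and 3.48 ± 0.29 in CB2-/- cells, with LPS plus interferon-γ, PolyI:C and CpG in that order. Traf2, which recruits the ubiquitin ligases Birc2 and Birc3 to the receptor, rose with LPS plus interferon-γ in both (2.16 ± 0.18 and 1.61 ± 0.18). The kinase gene Map3k14 fell with PolyI:C in WT (-0.63 ± 0.22).

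Cd83, a marker of mature dendritic cells that slows the removal of CD86 and MHC class II from the surface (chromosome 13, 43784775 to 43803132, plus strand), rose with LPS plus interferon-γ in both genotypes. Unstimulated WT of series A held 1301, 541 and 981, with replicate 2 the lowest, and LPS plus interferon-γ gave 2013, 1919.9 and 1819.8, a change of 1.12 ± 0.21 (adjusted p = 0.000165) that came to 0.62 with quantile scaling and was still called. CB2-/- cells went from 757, 760.0 and 745 to 1414, 1379.6 and 1506, a change of 0.92 ± 0.21 (adjusted p = 0.00212). CpG lowered it in WT to 215, 351 and 405 (-1.50 ± 0.21, adjusted p = 5.18e-06), where every library was under every unstimulated one. CB2-/- cells with CpG held 1155, 1122 and 1225, all above the unstimulated libraries, but the change of 0.63 ± 0.21 (adjusted p = 0.0519) missed the threshold, and 5 alternatives called it. PolyI:C gave 494, 531 and 559 in WT, which overlapped the unstimulated libraries; its fall of -0.74 ± 0.21 (adjusted p = 0.00702) was lost without unstimulated WT replicate 1 of series A (-0.47, adjusted p 0.0823), with the compared groups fitted alone (0.109) and with the 6 unstimulated WT libraries as 1 group (-0.40, adjusted p 0.154). PolyI:C gave 561, 639 and 744 in CB2-/- cells (-0.23 ± 0.21, adjusted p = 0.62).

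Icosl, the ligand of ICOS (chromosome 10, 78069302 to 78083913, plus strand), rose in CB2-/- cells and was not called in WT. There it went from 110.3, 138 and 108 without stimulus to 535, 518 and 523 with LPS plus interferon-γ (2.14 ± 0.40, adjusted p = 0.000243) and to 654, 506 and 610.2 with CpG (2.30 ± 0.40, adjusted p = 0.000177), without overlap. PolyI:C gave 183, 226 and 179 there, all above the unstimulated libraries but with a change of 0.72 ± 0.40 (adjusted p = 0.332). In WT the unstimulated libraries of series A held 161, 277 and 233, and LPS plus interferon-γ gave 247, 224 and 192, PolyI:C gave 148, 313 and 374 and CpG gave 48.2, 193 and 273. All of these WT ranges overlapped, and the changes were 0.01 ± 0.40 with LPS plus interferon-γ, 0.25 ± 0.40 with PolyI:C and -0.67 ± 0.40 with CpG. CpG replicate 1 of WT was the lowest library of all, and without replicate 3 the CpG change was -1.17 (adjusted p 0.0237).

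Cd274, the gene of PD-L1 (chromosome 19, 29367455 to 29388095, plus strand), rose with every stimulus in both genotypes. It stood at 257, 262 and 352 in unstimulated WT of series A and reached 17924, 19102 and 17512 with LPS plus interferon-γ, a 62.6-fold rise of the mean with a log2 change of 5.98 ± 0.20 (adjusted p = 3.25e-17). PolyI:C gave 5233, 8312 and 8090.3 (4.62 ± 0.20, adjusted p = 2.97e-15) and CpG 1025, 2093 and 2088 (2.52 ± 0.20, adjusted p = 3.95e-10), and these 3 stimulated groups did not overlap. CB2-/- cells started higher, at 1763, 1784 and 2025, and reached 14918, 15116 and 15651 with LPS plus interferon-γ. PolyI:C brought them to 4551, 4797 and 4494, and CpG to 7156, 7099 and 6970.4. Their log2 changes, in the order LPS plus interferon-γ, PolyI:C and CpG, were 3.04 ± 0.20 (adjusted p = 2.98e-11), 1.31 ± 0.20 (adjusted p = 9.98e-05) and 1.93 ± 0.20 (adjusted p = 9.6e-08). PolyI:C minus CpG was 2.10 ± 0.20 (adjusted p = 1.08e-08) in WT and -0.62 ± 0.20 (adjusted p = 0.0444) in CB2-/- cells, the latter a call lost without any 1 of the 6 libraries (adjusted p 0.0838 to 0.112). The unstimulated WT libraries of series B, at 1059, 825 and 768, lay above all 3 of series A, so the WT responses rest on the lower of the available baselines.

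Pdcd1lg2, the gene of PD-L2, starts 22.8 kb beyond the end of Cd274 on the same strand (29410919 to 29471161). WT CpG replicate 1 held 18.9, and no other library exceeded 7.75. With LPS plus interferon-γ, where Cd274 was highest, Pdcd1lg2 held 3.33, 7.75 and 0 in WT and 1.13, 1.22 and 0 in CB2-/- cells. Unstimulated WT of series A held 0, 0 and 0.74. PolyI:C gave 1.45 to 7.08 in WT and 0 in all CB2-/- libraries. Whether Pdcd1lg2 moved with Cd274 was not tested at such low values.

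The route from the interferon-γ receptor to Cd274 was followed with a list of 7 genes that includes Ifngr1, Ifngr2, Jak1, Jak2 and Irf1, all 7 of them tested. In WT 4 rose and 1 fell with LPS plus interferon-γ (median 1.45), 6 rose and 1 fell with PolyI:C, and 2 rose and 4 fell with CpG. Irf1, a transcription factor that acts on the Cd274 promoter, went from 488, 341 and 619 to 11715, 11727 and 12293 with LPS plus interferon-γ (4.66 ± 0.20, adjusted p = 2.8e-15) and fell with CpG to 239.6, 132 and 180.4 (-1.39 ± 0.20, adjusted p = 6.12e-06), where Cd274 rose. Jak2, the gene of a kinase bound to the receptor, rose with PolyI:C and with CpG (3.06 ± 0.16 and 1.36 ± 0.16). Ifngr1, the ligand-binding chain, fell with each stimulus in WT, with changes of -2.47 ± 0.11, -1.82 ± 0.11 and -1.72 ± 0.11 for LPS plus interferon-γ, PolyI:C and CpG. In CB2-/- cells 5 rose and 1 fell with LPS plus interferon-γ, 4 rose and 0 fell with PolyI:C by limma (1 fell at an unadjusted p under 0.05), and 2 rose and 1 fell with CpG.

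Havcr2, the gene of TIM-3 (chromosome 11, 46454935 to 46481255, plus strand), was high in unstimulated cells and lower with stimulation. Unstimulated WT of series A held 873, 904 and 823. CpG took it to 0 to 30.1, with replicate 1 listed at 0, a change of -6.60 ± 0.68 (adjusted p = 3.47e-08) that was -5.02 without replicate 1, and all 3 lay far under every other group. PolyI:C gave 155, 269.7 and 318 and a change of -1.87 ± 0.68 (adjusted p = 0.0309), and leaving out any library other than PolyI:C replicate 3 ended that call (adjusted p 0.0515 to 0.116). LPS plus interferon-γ gave 662, 625 and 645, all under the unstimulated libraries, with a change of -0.43 ± 0.68 (adjusted p = 0.661) that was not called. In CB2-/- cells the libraries held 1372, 1161 and 1173 without stimulus and 444, 457 and 472 with LPS plus interferon-γ. PolyI:C gave 1059, 919 and 943, and CpG gave 313, 299 and 305. Each stimulated group lay under the unstimulated one, yet the changes of -1.43 ± 0.68, -0.34 ± 0.68 and -2.01 ± 0.68 were not called, with adjusted p of 0.148, 0.847 and 0.0504. The SE of Havcr2, 0.68, was the largest among the members and is shared by all groups of the fit. A fit of the compared groups alone called the LPS plus interferon-γ fall in both genotypes (adjusted p 0.00635 in WT and 1.73e-05 in CB2-/-) and the CpG fall in CB2-/- cells (6.61e-06).

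Lgals9, the gene of the TIM-3 ligand galectin-9 (chromosome 11, 78962974 to 78984946, minus strand), had the smallest SE of the members, 0.10. In WT it went from 1087, 1362 and 1273 to 5636, 6791 and 6839 with PolyI:C (2.37 ± 0.10, adjusted p = 1.01e-15) and to 3656, 3519.6 and 3829.9 with LPS plus interferon-γ (1.57 ± 0.10, adjusted p = 2.18e-12), and LPS plus interferon-γ minus PolyI:C was -0.80 ± 0.10 (adjusted p = 3.19e-06). CpG lowered it to 792, 643 and 739 (-0.77 ± 0.10, adjusted p = 7.01e-07), under every unstimulated WT library. CB2-/- cells went from 1931, 2099.7 and 2013 to 2796, 2956 and 2853 with LPS plus interferon-γ (0.51 ± 0.10, adjusted p = 0.000278), to 2525, 2919.5 and 2712 with PolyI:C (0.43 ± 0.10, adjusted p = 0.00519) and to 1418, 1366 and 1429.8 with CpG (-0.52 ± 0.10, adjusted p = 0.000375). The directions were the same in both genotypes, and the ranges of LPS plus interferon-γ and PolyI:C overlapped in CB2-/- cells alone. With quantile scaling the rises with LPS plus interferon-γ were 0.91 in WT, still called, and 0.21 in CB2-/- cells (adjusted p 0.104).

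Of 4 other galectin genes and Lgals3bp, 4 of 5 were tested. With LPS plus interferon-γ in WT 3 rose and 0 fell by limma, also at an unadjusted p under 0.05 (median 0.91), with CpG 1 rose and 3 fell, and with PolyI:C 2 rose and 1 fell. Lgals3bp, whose product binds galectins, moved in the directions of Lgals9 in WT: 1.36 ± 0.14, 1.79 ± 0.14 and -1.19 ± 0.14 with LPS plus interferon-γ, PolyI:C and CpG. Lgals3 rose with LPS plus interferon-γ (1.48 ± 0.16) and fell with CpG (-2.20 ± 0.16).

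Cd200r1, the receptor through which neurons restrain microglia (chromosome 16, 44765736 to 44794978, plus strand), was highest without stimulus in both genotypes. WT of series A held 197, 183 and 194 and fell to 13.7, 55.8 and 64.4 with PolyI:C (-2.34 ± 0.36, adjusted p = 8.06e-06), to 80.6, 84.8 and 68.2 with CpG (-1.29 ± 0.36, adjusted p = 0.00601) and to 106, 100.1 and 101 with LPS plus interferon-γ (-0.90 ± 0.36, adjusted p = 0.0486). The groups did not overlap with the unstimulated one, but the call with LPS plus interferon-γ was lost without any 1 of the 6 libraries (adjusted p 0.0772 to 0.102). PolyI:C replicate 1 of WT, at 13.7, was far under the other 2. CB2-/- cells fell from 289, 251 and 224 to 27.8, 34.7 and 42.8 with LPS plus interferon-γ (-2.84 ± 0.36, adjusted p = 1.08e-06) and to 42.5, 26.7 and 31.0 with CpG (-2.91 ± 0.36, adjusted p = 1.23e-06). With PolyI:C they held 232, 149 and 157, which overlapped the unstimulated libraries (-0.52 ± 0.36, adjusted p = 0.453). PolyI:C was thus the stimulus with the lowest mean in WT and the highest in CB2-/- cells.

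The CD200 receptor family and its adaptors gave 5 tested genes of 7: Cd200r4, Dok1, Dok2, Rasa1 and Inpp5d. Dok2, the adaptor that the receptor recruits, rose with each stimulus in WT, by 1.83 ± 0.14, 1.62 ± 0.14 and 1.89 ± 0.14, and fell with LPS plus interferon-γ in CB2-/- cells (-0.45 ± 0.14). Inpp5d, the lipid phosphatase SHIP1, fell in WT with PolyI:C (-1.03 ± 0.15) and with CpG (-0.80 ± 0.15). In WT 1 rose and 2 fell with LPS plus interferon-γ (median 0.41) and with PolyI:C, and 1 rose and 3 fell with CpG. With LPS plus interferon-γ 1 rose and 3 fell in CB2-/- cells. With PolyI:C 0 were called there by limma, against 1 each way at an unadjusted p under 0.05, and with CpG 0 rose, at either threshold, and 2 fell.

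Without stimulus, CB2-/- microglia held more of 5 members than WT microglia of series B: Cd40, Cd80, Cd86, Cd274 and Lgals9 were higher and 0 were lower by limma, also at an unadjusted p under 0.05, where 6.25% of all genes were called higher and 3.65% lower, with a median of 1.05 over the members and -0.05 over all genes. Cd40 stood at 47.3, 57.3 and 48.4 in CB2-/- and 11.5, 22.8 and 2.23 in WT libraries, a difference of 2.39 ± 0.43 (adjusted p = 0.000623) that was 1.59 without WT replicate 3 of series B and 1.06, still called, in the authors' batch-corrected table. With only the compared groups fitted the Cd40 call was lost (adjusted p 0.106). Cd80 held 160.4, 162 and 166 against 72.7, 56.2 and 33.2 (1.64 ± 0.39, adjusted p = 0.00732), and that call was lost without the same library (adjusted p 0.0621) and with the 6 unstimulated WT libraries as 1 group (1.09, adjusted p 0.06). Cd86 differed by 1.32 ± 0.22 (adjusted p = 0.000297), with 477, 350.2 and 389.7 in WT of series B. Lgals9 held 1142, 1103 and 1039.7 in WT of series B, and the difference was 0.88 ± 0.10 (adjusted p = 8.66e-07). For Cd274 the difference was 1.08 ± 0.20 (adjusted p = 0.000774). All 6 of 6 astrocyte markers reached a value of 10 in both groups, and their sum, given above, was higher in WT of series B in every library; their part in these values was not tested. With the libraries that held over 10% of their summed value in 3 genes left out, an alternative added after the data were seen that leaves 1 WT and 2 CB2-/- unstimulated libraries, Cd40 (2.09, adjusted p 0.0221) and Lgals9 (0.82, 0.0138) were called and Cd80, Cd86 and Cd274 were not, at 1.14, 1.12 and 0.74.

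Cd83, Havcr2, Icosl and Cd200r1 were not called between the unstimulated genotypes. Havcr2 held 1372, 1161 and 1173 in CB2-/- and 701, 471 and 632 in WT of series B without overlap (1.05 ± 0.68, 95% interval -0.36 to 2.46, called with library weights, with the compared groups alone and in the batch-corrected table), Icosl 110.3, 138 and 108 and 115, 188 and 172 with overlap, and Cd200r1 289, 251 and 224 and 293, 265 and 302 with overlap. Unstimulated WT itself was called different between the series for 1 member each way. Series B minus series A was 1.60 ± 0.20 (adjusted p = 4.17e-06) for Cd274 and -0.69 ± 0.21 (adjusted p = 0.0351) for Cd83. Among all genes 6.33% were called higher and 5.66% lower. By limma at an unadjusted p under 0.05, 1 member was higher and 3 were lower. Cd80 (-1.12 ± 0.39, 95% interval -1.92 to -0.31) and Cd86 (-0.56 ± 0.22, 95% interval -1.02 to -0.10) were lower without a call. Leaving out any library other than replicate 2 of series A ended the Cd83 call (adjusted p 0.0562 to 0.267), and without that replicate the difference was -1.05. Cd40 and Cd80, not called between the series, were called lower in series B without WT replicate 2 (-1.29) and replicate 1 (-1.36) of series B respectively. For Cd274 the WT series thus differed by 1.60, against 1.08 between the genotypes within series B, where each genotype has its own run of numbers.

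**Figure D3:**
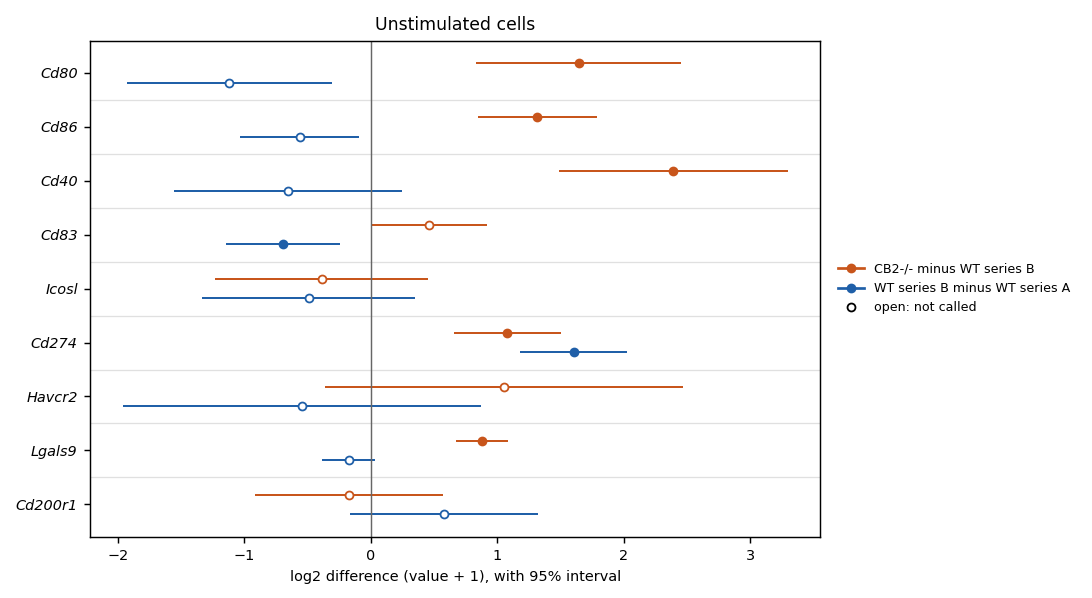
Differences between groups of unstimulated libraries for the 9 tested members on the log2(value + 1) scale, with 95% intervals of the fit: CB2-/- minus WT of series B in orange and WT of series B minus WT of series A in blue, filled where the adjusted p was under 0.05. Cd274 lies above 0 in both comparisons (1.08 and 1.60), while Cd80, Cd86, Cd40 and Lgals9 lie above 0 in the first and are not called in the second.

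The responses of the genotypes to LPS plus interferon-γ differed for 6 of 9 members, taken as the response in CB2-/- minus that in WT. The rise was smaller in CB2-/- cells for Cd274 (-2.94 ± 0.28, adjusted p = 1.17e-07), Cd86 (-2.17 ± 0.31, adjusted p = 3.24e-05), Cd40 (-2.19 ± 0.61, adjusted p = 0.0184) and Lgals9 (-1.06 ± 0.14, adjusted p = 7.37e-06), and Cd200r1 fell further (-1.94 ± 0.50, adjusted p = 0.011), making 5 lower, while Icosl was the 1 higher (2.13 ± 0.57, adjusted p = 0.0135). Among all genes 8.36% were called lower and 3.98% higher, and the median was -1.32 over the members and -0.02 over all genes. For Cd274 the smaller rise went with a higher start, 1763 to 2025 against 257 to 352, and reached 14918 to 15651 in CB2-/- against 17512 to 19102 in WT cells. Cd86 reached 3086 to 3316 against 8435 to 8789, and Cd40 4165 to 4388 against 5725 to 5997. The Cd40 call was lost without unstimulated WT replicate 2 of series A (adjusted p 0.0537), and the Icosl and Cd200r1 calls without the libraries with over 10% in 3 genes (adjusted p 0.183 and 0.0782), which leaves 1 CB2-/- library with LPS plus interferon-γ. With the 6 unstimulated WT libraries taken as 1 group, the difference of Cd274 was -2.14 and that of Cd86 -2.45. Cd80 (-1.32 ± 0.55, 95% interval -2.46 to -0.18), Cd83 (-0.82 to 0.44) and Havcr2 (-2.99 to 0.99) were not called. Under 5 alternatives Cd80 was called lower: with the pooled WT libraries (-1.88, adjusted p 0.0487), library weights (adjusted p 0.00102), the compared groups alone (0.00474), the batch-corrected table (0.0418) and the WT libraries low in astrocyte and fibroblast markers left out (0.0109). Havcr2 was called lower under 4: library weights (adjusted p 0.0243), the compared groups alone (9.85e-05), the batch-corrected table (-0.68, adjusted p 0.0156) and without those low-marker libraries (0.00102).

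For PolyI:C 4 members differed downwards and 1 upwards, against 13.9% and 10.8% of all genes, with a median of -0.41 over the members and 0.08 over all genes. Cd40 had the largest difference, -4.44 ± 0.61 (adjusted p = 6.02e-06), with stimulated levels of 234 to 299 in CB2-/- and 1242 to 2187 in WT cells. Cd274 followed with -3.30 ± 0.28 (adjusted p = 4.89e-09), Lgals9 with -1.94 ± 0.14 (adjusted p = 2.02e-10) and Cd86 with -1.07 ± 0.31 (adjusted p = 0.0141). For Cd86 quantile scaling gave -0.69 and ended the call (adjusted p 0.0894), and so did leaving out the libraries with over 10% in 3 genes (adjusted p 0.0679). Cd200r1 fell in WT and not in CB2-/- cells, a difference of 1.82 ± 0.50 (adjusted p = 0.00918), which was 1.13 without WT PolyI:C replicate 1 and still called, and whose call was lost with only the compared groups fitted (adjusted p 0.0514) and without the libraries with over 10% in 3 genes (0.0534). With the 6 unstimulated WT libraries as 1 group, Cd274 differed by -2.50 and Cd40 by -4.77. The 95% intervals of the members not called were -1.55 to 0.73 for Cd80, -0.71 to 1.65 for Icosl, -0.47 to 3.52 for Havcr2 and -0.11 to 1.14 for Cd83. Cd83 was called without unstimulated WT replicate 2 of series A (0.87) and with library weights (0.65, adjusted p 0.00612), and Havcr2 under the same 4 alternatives as for LPS plus interferon-γ (adjusted p 0.000128 to 0.0178).

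For CpG the differences pointed mostly upwards, 4 members against 1, where 6.11% of all genes were called higher and 5.66% lower; the median was 1.05 over the members and 0.10 over all genes. Havcr2 had the largest, 4.59 ± 0.96 (adjusted p = 0.00231), with 0 to 30.1 in WT and 299 to 313 in CB2-/- cells; without WT CpG replicate 1, listed at 0, it was 3.01 and still called. Icosl differed by 2.97 ± 0.57 (adjusted p = 0.000976) and Cd83 by 2.13 ± 0.30 (adjusted p = 4.07e-05), with Cd83 at 1122 to 1225 in CB2-/- and 215 to 405 in WT cells. Cd86 fell less in CB2-/- cells (1.05 ± 0.31, adjusted p = 0.0305), a difference that was 0.62 without WT CpG replicate 1. Leaving out CB2-/- CpG replicate 1 or 2, unstimulated CB2-/- replicate 2 or 3, or unstimulated WT replicate 3 of series A ended that call (adjusted p 0.0557 to 0.0739), as did a fit of the compared groups alone (0.123) and the 6 unstimulated WT libraries as 1 group (0.155). Cd200r1 fell further (-1.62 ± 0.50, adjusted p = 0.0364), and here the call held only without CB2-/- CpG replicate 1, unstimulated CB2-/- replicate 3 or WT CpG replicate 3; leaving out any of the other 9 libraries ended it (adjusted p 0.0567 to 0.0917). Cd274 was not called (-0.59 ± 0.28, adjusted p 0.198), but it was without WT CpG replicate 1 (-0.93, adjusted p 0.00499), and with the 6 unstimulated WT libraries as 1 group it was 0.22 (adjusted p 0.849). Cd40 gave 0.79 ± 0.61, with a 95% interval of -0.48 to 2.06, and was called in the batch-corrected table (1.16, adjusted p 0.00571). Cd80 was not called (1.41 ± 0.55, 95% interval 0.27 to 2.55), but it was without WT CpG replicate 2 (1.79). With library weights 8 of the 9 members were called for the CpG difference. Whether the differences for 2 stimuli differ from each other was not tested.

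**Figure D4:**
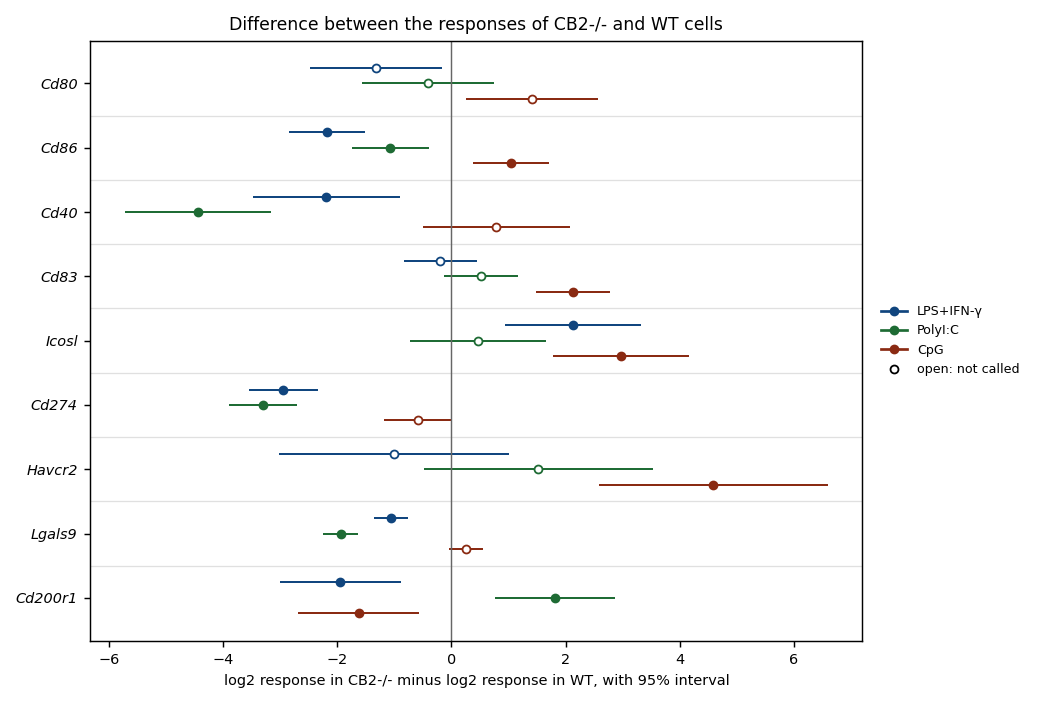
Response of CB2-/- cells minus response of WT cells, each against its own unstimulated group, for the 9 tested members on the log2(value + 1) scale, with 95% intervals of the fit and filled points where the adjusted p was under 0.05. Cd274, Cd40, Cd86 and Lgals9 lie under 0 for LPS plus interferon-γ and for PolyI:C, while Cd86, Cd83, Icosl and Havcr2 lie above 0 for CpG.

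Set against each other in WT, LPS plus interferon-γ gave higher Cd40, Cd86, Cd83, Cd274 and Cd200r1 than PolyI:C and lower Lgals9, 5 and 1 of 9 members, where 5.35% of all genes were called higher and 3.91% lower. Cd86 differed by 2.07 ± 0.22 (adjusted p = 6.01e-07) and Cd83 by 1.86 ± 0.21 (adjusted p = 1.64e-06). The calls for Cd40 (1.70 ± 0.43) and Cd200r1 (1.45 ± 0.36) were lost without WT PolyI:C replicate 1, at adjusted p of 0.0739 and 0.0517, and Cd200r1 then differed by 0.76. Against CpG, 7 members were higher with LPS plus interferon-γ and 0 lower by limma, also at an unadjusted p under 0.05, with 19.7% and 13.1% of all genes called; Cd86 differed by 5.72 ± 0.22 (adjusted p = 6.18e-16) and Havcr2 by 6.17 ± 0.68 (adjusted p = 9.84e-08). PolyI:C minus CpG gave 7 higher and 1 lower, with 17.6% and 12.5% of all genes called; Lgals9 differed by 3.15 ± 0.10 (adjusted p = 1.24e-17), and the lower 1 was Cd200r1 (-1.05 ± 0.36), which was -0.37 and not called without WT PolyI:C replicate 1, and not called without CpG replicate 1 (adjusted p 0.0602) or 2 (0.0742). Icosl, not called, was called without WT CpG replicate 3 (1.18 for LPS plus interferon-γ and 1.41 for PolyI:C, each minus CpG) or, for PolyI:C, without its replicate 1 (1.32). Cd83 (0.75 ± 0.21) was 0.48 and not called without WT CpG replicate 1 (adjusted p 0.087).

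In CB2-/- cells LPS plus interferon-γ against PolyI:C gave 5 members higher and 1 lower, with 6.95% and 4.96% of all genes called. Cd40 led with 3.95 ± 0.43 (adjusted p = 6.06e-07), and Cd200r1 was the lower 1 (-2.31 ± 0.36, adjusted p = 5.67e-05); the Icosl call (1.43 ± 0.40) was lost on leaving out any library other than PolyI:C replicate 2 (adjusted p 0.0547 to 0.0637). Against CpG 4 were higher and 0 lower by limma, also at an unadjusted p under 0.05, with 6.36% and 3.82% of all genes: Cd86 (2.50 ± 0.22), Cd40 (1.83 ± 0.43), Cd274 (1.11 ± 0.20) and Lgals9 (1.03 ± 0.10). PolyI:C minus CpG gave 3 higher and 4 lower, with 6.39% and 5.56%. Cd86 (1.53 ± 0.22), Lgals9 (0.95 ± 0.10) and Cd200r1 (2.39 ± 0.36) were higher with PolyI:C, and Cd40, Cd83 (-0.86 ± 0.21, adjusted p 0.0509 without CB2-/- PolyI:C replicate 1), Icosl (-1.59 ± 0.40) and Cd274 were higher with CpG.

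Further genes of T cell contact were taken as lists. Of 8 adhesion molecules, all tested, 5 rose and 1 fell with LPS plus interferon-γ in WT (median 2.10) and in CB2-/- cells (median 1.23). With PolyI:C 5 rose in WT and 2 in CB2-/- cells, and 0 fell by limma, against 0 and 2 falls at an unadjusted p under 0.05. With CpG 4 rose in both, while 0 fell in WT, at either threshold, and 2 in CB2-/- cells. Icam1, the ligand of the integrin LFA-1, rose by 3.09 ± 0.10 with LPS plus interferon-γ in WT and by 3.37 ± 0.10 in CB2-/- cells, and Slamf7, a receptor that binds itself on the partner cell, by 7.37 ± 0.24 and 3.93 ± 0.24. Of 18 further ligands and receptors of the B7, nectin and butyrophilin families 9 were tested, and 4 rose and 2 fell with LPS plus interferon-γ in WT (median -0.13). Vsir, the gene of the checkpoint molecule VISTA, went from 5737, 5233 and 4949.7 to 574, 529 and 562 (-3.25 ± 0.20, adjusted p = 1.93e-12), and Tnfrsf14, the receptor HVEM, rose by 2.06 ± 0.38. Vsir fell with PolyI:C (-2.41 ± 0.20) and CpG (-0.78 ± 0.20) as well in WT, and with LPS plus interferon-γ in CB2-/- cells (-1.28 ± 0.20).

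Of 6 costimulatory ligands of the tumour necrosis factor family 3 were tested, and 2 rose and 1 fell with LPS plus interferon-γ and with PolyI:C in WT. Tnfsf9, the ligand of 4-1BB, rose with all stimuli in WT, by 3.43 ± 0.16, 3.96 ± 0.16 and 2.76 ± 0.16, and in CB2-/- cells by 1.03 ± 0.16, 0.82 ± 0.16 and 1.30 ± 0.16, in the order LPS plus interferon-γ, PolyI:C and CpG. Unstimulated WT of series B lay above series A for this gene too, by 2.84 ± 0.16. Of the 8 partners of the members, Cd28, Cd200, Ceacam1 and Hmgb1 were tested, Icos was under the filter, and Cd40lg, Ctla4 and Pdcd1 were not analysed here. With each stimulus in WT 2 of the 4 fell and 0 rose by limma, against 1 rise with LPS plus interferon-γ at an unadjusted p under 0.05. Hmgb1, whose product is a ligand of TIM-3, fell with each stimulus in WT, with changes of -1.14 ± 0.20, -1.43 ± 0.20 and -0.79 ± 0.20.

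Taking each library as its difference from the mean of its own unstimulated group, the genes whose pattern over the 27 libraries was most like that of a member were found by Pearson's r. The libraries share these group means, so r is a description. Il27, a cytokine subunit, was most like Cd40 (r = 0.98), Slc7a2, an arginine transporter, was among the 2 most like Cd274 (0.99), and Ube2l6 and Ifit3, both interferon-induced, were most like Lgals9 (0.99 for each). For Havcr2 these were Csf2rb2 (0.95) and Lsp1 (0.95), for Cd200r1 Pmepa1 (0.95) and Thbd (0.95), for Cd86 Syf2 (0.98) and Gm4951 (0.97), and for Cd80 Thbs1 (0.96). For Cd83 the first was Gpr132 (0.89) and for Icosl Sdk1 (0.89). Among the members themselves Cd40 and Cd274 were the most alike (0.96), followed by Cd86 with Lgals9 (0.82) and with Cd80 (0.82), and Cd40 and Cd200r1 ran most in opposite directions (-0.65).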

How the data were processed

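RNA from the microglial cultures was sequenced in 75 bp single-end reads, with a TruSeq v2 and a low-input SMART-Seq2 protocol, per the labels' protocols, which do not say which library had which. CASAVA 1.8, kallisto and DESeq2 are named, per the submitters' processing notes, without their roles. Build and annotation were not given in the sources used here. Of the deposited tables the main one holds normalised counts per gene, a signal whose scaling step no label describes; the other, batch-corrected by the authors, has log2-like values that include negative ones, and served as an alternative only. Reads could not be recovered from the normalised counts, since 45.9 to 67.7% of low values, depending on the library, were whole multiples of a common step (tolerance 0.01, under 20 steps), so read depth is unknown and only the summed values are given. No 2 libraries held identical values (0 pairs).

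The 14668 of 23995 genes with values of 10 or more in 3 or more libraries were fitted with limma 3.58.1 (R 4.3.3) on log2(value + 1), with the 9 groups as coefficients, 27 libraries and a trended empirical Bayes variance. Comparisons were 17 two-sided contrasts, with Benjamini-Hochberg adjustment over all genes within each. Log2 fold changes on this scale understate changes of low genes. The fit was tested on simulated data. Named genes are the 10 members, from each list up to 4 called genes a comparison with the largest change whose higher group averaged 100 or more, and the 2 genes most like each member. The members and the gene lists were chosen with earlier results of these data known. Positions are from GENCODE M21 (GRCm38), which matched 23933 of 23995 gene identifiers, and promoters from RefSeq. Alternatives were other pseudocounts, filters, scalings and variance models, library weights, a minimum change, compared groups alone, unstimulated WT as 1 group, the batch-corrected table and leaving out each library. Some genes of the lists are not reported here.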

Additional observations from a re-analysis of the deposited data

Results flagged for a closer look

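The responses of the genotypes differed by the test of the difference itself (limma, adjusted p under 0.05) in 16 cases, each given as the log2 response in CB2-/- minus that in WT, each against its own unstimulated group. In all of them genotype and number series cannot be told apart. For LPS plus interferon-γ the differences were -2.94 for Cd274, -2.19 for Cd40, -2.17 for Cd86, -1.94 for Cd200r1, -1.06 for Lgals9 and 2.13 for Icosl. For PolyI:C they were -4.44 for Cd40, -3.30 for Cd274, -1.94 for Lgals9, -1.07 for Cd86 and 1.82 for Cd200r1. For CpG they were 4.59 for Havcr2, 2.97 for Icosl, 2.13 for Cd83, 1.05 for Cd86 and -1.62 for Cd200r1. No rule was used to flag single libraries that stand apart within groups of 3, though each library was left out in turn.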

How the results depend on the processing

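No called member value changed sign under the alternatives run (153 values, of 9 members in 17 comparisons). Of 100 calls, 59 were made under every alternative and 41 were lost under at least 1. Of 3096 alternative values 2834 kept their direction and their side of the threshold, 142 lost the call, 90 gained it and 30, called in neither fit, changed sign, among them Cd274 for the CpG difference (-0.59, and 0.22 with unstimulated WT as 1 group). The cause was not tested. No paired analysis was possible because the labels give no replicate numbers. Read depth is unknown, so the precision of low members such as Pdcd1lg2 cannot be stated. In the next values LPS stands for LPS plus interferon-γ, and the libraries left out for 3 genes or for markers were chosen after the data were seen.

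The number of members called was 5 for the CpG difference, 5 for the PolyI:C difference, 5 for the unstimulated genotypes, 6 for LPS minus PolyI:C in CB2-/-, 7 for LPS in CB2-/-, 7 for PolyI:C minus CpG in CB2-/-, 8 for PolyI:C minus CpG in WT, 4 for PolyI:C in CB2-/- and 2 for the WT series, and it moved by over 1.5 times under these settings. With library weights it was 8 for the CpG difference and 5 for the WT series. With a log2 change of at least 1 required it was 4 for PolyI:C minus CpG in CB2-/-, 2 for PolyI:C in CB2-/- and 1 for the WT series. With only the compared groups fitted it was 5 for PolyI:C minus CpG in WT and 1 for the WT series. With the batch-corrected table it was 0 for the WT series. Without the 6 libraries with over 10% in 3 genes it was 3 for the CpG difference, 3 for the PolyI:C difference, 2 for the unstimulated genotypes, 3 for LPS minus PolyI:C in CB2-/-, 4 for LPS in CB2-/-, 4 for PolyI:C minus CpG in CB2-/-, 2 for PolyI:C in CB2-/- and 1 for the WT series. With unstimulated WT as 1 group it was 3 for the CpG difference. With an untrended variance it was 1 for the WT series. Without WT libraries low in astrocyte and fibroblast markers it was 6 for the WT series. Leaving out 1 library at a time it ran from 1 to 2 for the WT series and from 3 to 5 for the CpG difference.

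The number of all genes called was 2092 for CpG in CB2-/-, 5285 for CpG in WT, 1726 for the CpG difference, 1810 for the LPS difference, 3636 for the PolyI:C difference, 1452 for the unstimulated genotypes, 1493 for LPS minus CpG in CB2-/-, 4812 for LPS minus CpG in WT, 1747 for LPS minus PolyI:C in CB2-/-, 1358 for LPS minus PolyI:C in WT, 3471 for LPS in CB2-/-, 5830 for LPS in WT, 1754 for PolyI:C minus CpG in CB2-/-, 4412 for PolyI:C minus CpG in WT, 1254 for PolyI:C in CB2-/-, 6032 for PolyI:C in WT and 1758 for the WT series. With library weights it was 4158 for CpG in CB2-/-, 2967 for the CpG difference, 4453 for the LPS difference, 5528 for the PolyI:C difference, 2543 for the unstimulated genotypes, 3723 for LPS minus CpG in CB2-/-, 2741 for LPS minus PolyI:C in CB2-/-, 2755 for LPS minus PolyI:C in WT, 5603 for LPS in CB2-/-, 2962 for PolyI:C minus CpG in CB2-/-, 2040 for PolyI:C in CB2-/- and 3232 for the WT series. With a log2 change of at least 1 required it was 1048 for CpG in CB2-/-, 3114 for CpG in WT, 1041 for the CpG difference, 1102 for the LPS difference, 537 for the unstimulated genotypes, 700 for LPS minus CpG in CB2-/-, 2903 for LPS minus CpG in WT, 819 for LPS minus PolyI:C in CB2-/-, 614 for LPS minus PolyI:C in WT, 1873 for LPS in CB2-/-, 3713 for LPS in WT, 740 for PolyI:C minus CpG in CB2-/-, 2473 for PolyI:C minus CpG in WT, 462 for PolyI:C in CB2-/-, 3867 for PolyI:C in WT and 792 for the WT series. With only the compared groups fitted it was 3299 for CpG in CB2-/-, 2673 for CpG in WT, 911 for the unstimulated genotypes, 2956 for LPS minus CpG in CB2-/-, 2022 for PolyI:C minus CpG in WT and 657 for the WT series. With the batch-corrected table it was 2924 for the LPS difference, 3445 for the unstimulated genotypes, 2347 for LPS minus CpG in CB2-/-, 2772 for LPS minus PolyI:C in CB2-/-, 2187 for LPS minus PolyI:C in WT, 2932 for PolyI:C minus CpG in CB2-/-, 2250 for PolyI:C in CB2-/- and 0 for the WT series. Without the 6 libraries with over 10% in 3 genes it was 741 for the LPS difference, 156 for the unstimulated genotypes, 585 for LPS minus CpG in CB2-/-, 492 for LPS minus PolyI:C in CB2-/-, 1510 for LPS in CB2-/-, 609 for PolyI:C in CB2-/- and 759 for the WT series. With unstimulated WT as 1 group it was 2209 for the unstimulated genotypes. Leaving out 1 library at a time gave 819 to 1976 for the unstimulated genotypes and 805 to 1041 for PolyI:C in CB2-/-.

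Quantile scaling moved the median of all genes by 0.14 for CpG in WT, -0.13 for the PolyI:C difference, -0.23 for LPS minus CpG in WT and -0.11 for PolyI:C minus CpG in WT. With it the share of called genes that were higher went from 59.8% to 46.3% for PolyI:C in CB2-/-, from 32.3% to 44.8% for the LPS difference, from 60.0% to 43.7% for LPS minus CpG in WT, from 58.4% to 46.7% for PolyI:C minus CpG in WT and from 62.5% to 47.6% for LPS minus CpG in CB2-/-.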
